A study of Mus musculus with 96 samples.

Results

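The AP-1 family comprises here the 7 genes that encode its Fos and Jun proteins, namely Fos, Fosb, Fosl1, Fosl2, Jun, Junb and Jund. They were chosen by symbol, out of 19505 genes named on the array, and each was read by 1 probe set. Fos proteins pair with Jun proteins through their leucine zippers, and Jun proteins can also pair with each other. The pairs bind short DNA elements in the control regions of many genes. In the brain, Fos, Fosb, Jun and Junb are known as immediate early genes, which are transcribed within minutes of strong neuronal activity, depolarization or injury without new protein synthesis, whereas Jund is present at rest.

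RNA was measured in the ipsilateral (IP, right) and the contralateral (CL, left) hemisphere of the same mouse, with 1 array each. Tissue came from the brain slice at bregma, 2 h after the onset of ischemia, that is after 90 min of middle cerebral artery occlusion (MCAO) with an intraluminal filament and 30 min of reperfusion. Sham mice had the same surgery without the filament. The question was how the early response to ischemia differed with diabetes and age, and 68 arrays of 34 mice were used.

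The diabetic group held male BKS-Leprdb/db/JOrlRj mice of 8 to 12 weeks, with 8 MCAO and 4 sham mice. These lack a working leptin receptor, are obese as well as diabetic, and are of another strain than the other groups. The old group held male C57Bl/6j mice of 18 months, with 8 MCAO and 4 sham mice. The male group held young male C57Bl/6j mice of 8 to 12 weeks, of which 7 MCAO and 3 sham mice were used. All mice were given buprenorphine and isoflurane. Females were not used, since the hemisphere labels of their arrays are in doubt.

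Each value is a log2 signal, so a difference of 1 stands for a doubling. The groups were normalized apart, and only differences within a group were compared between groups. The median correlation of an array with the other arrays of its group was 0.9617 to 0.9783 in diabetic mice, 0.9722 to 0.9797 in old mice and 0.9749 to 0.9829 in the male arrays that were used. It was 0.418 to 0.5908 in the 4 arrays of male MCAO mouse 3 and male sham mouse 1, which were left out. Markers of neurons lay at a median percentile of 98.7, 98.3 and 98.9 of all genes in diabetic, old and male mice. Those of neutrophils lay at 26.8, 23.7 and 20.3. Since whole tissue was measured, fewer cells of a type and less RNA per cell cannot be told apart. Markers of choroid plexus varied between hemispheres, from -1.98 to 2.69 (mean IP minus CL of 4 genes) among diabetic MCAO mice.

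The start regions of 4 members that were called in the IP hemisphere of each group are shown first. Windows were available in RefSeq for 6 of the 7 members (build GRCm38.p6), and the 250 bases upstream of the start were searched on both strands. The letters TGACG, the core of the cAMP response element to which CREB binds, were found in Fos, Fosb and Junb and in 17.8% of all 32851 windows. The 150 bases before the start of these 4 members read as follows, 5′ to 3′ along the gene, with TGACG in capitals in Fos, Fosb and Junb and TGACATCA in capitals in Jun.
Fos, chr12:85473740-85473889, plus strand: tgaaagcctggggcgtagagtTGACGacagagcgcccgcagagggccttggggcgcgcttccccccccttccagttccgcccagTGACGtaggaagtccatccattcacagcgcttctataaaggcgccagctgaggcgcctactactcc
Fosb, chr7:19310046-19310195, minus strand: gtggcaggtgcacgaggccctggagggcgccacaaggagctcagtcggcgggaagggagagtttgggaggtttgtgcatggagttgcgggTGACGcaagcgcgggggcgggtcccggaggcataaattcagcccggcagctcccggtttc
Junb, chr8:84978749-84978898, minus strand: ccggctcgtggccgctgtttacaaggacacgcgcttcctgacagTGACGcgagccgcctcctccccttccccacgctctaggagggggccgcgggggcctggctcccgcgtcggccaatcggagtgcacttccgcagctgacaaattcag
Jun, chr4:95052223-95052372, minus strand: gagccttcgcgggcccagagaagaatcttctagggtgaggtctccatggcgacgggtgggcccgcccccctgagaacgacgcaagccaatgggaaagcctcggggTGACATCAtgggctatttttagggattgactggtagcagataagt
Fos held TGACG at -129 and at -66, where -1 is the last base before the start, Fosb at -60 and Junb at -106. Jun held TGACATCA at -45, a form of the element known from the human JUN gene as a site of Jun and ATF2 pairs, which 2.93% of all windows held. The letters TATAAA, at -33 in Fos, were found in 12.4% of windows. The full palindrome TGACGTCA, the AP-1 element TGACTCA and the CArG box of serum response factor were found in none of the 6 members within these 250 bases, and in 1.55%, 4.46% and 1.47% of all windows. Fosl2 and Jund held none of these letters, and no window was available for Fosl1. A match of letters describes the sequence only.

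After MCAO the IP hemisphere held more RNA of most Fos and Jun genes than the CL hemisphere of the same mouse. In diabetic mice 6 of the 7 members rose, Fos the most with a mean difference of 2.43, and in male mice 4 of 7 rose, Fos the most with 2.13. In old mice Fos averaged 1.69 and Fosb 1.53, and none of the 7 passed the test. Under an unadjusted p of 0.05 (limma) lay 6 of the 7 members and 1386 of all 19505 genes. Jund was near even between hemispheres in all 3 groups. For scale, 1.04% of all genes tested were called higher in IP in diabetic mice, 0% in old mice and 0.149% in male mice (limma, Benjamini-Hochberg adjusted p under 0.05). The median over the 7 members was 1.27, 0.81 and 0.94 in diabetic, old and male mice, beside 0.02, -0.01 and -0.00 over all genes.

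Fos encodes the founding member of the family and dimerizes only with partners such as Jun. In diabetic MCAO mice its IP minus CL difference had a lowest, median and highest value of 0.18, 2.64 and 3.64, against -0.26, -0.00, 0.55 and -0.29 in the 4 sham mice. In old mice the values were -0.20, 2.01 and 2.62 after MCAO, against -0.27, -0.46, 0.28 and 0.25 after sham surgery. In male mice they were 0.43, 2.62 and 2.70 after MCAO, against 0.10, 0.22 and -0.02 after sham surgery. All male MCAO mice thus lay above all male sham mice, and 7 of 8 MCAO mice lay above every sham mouse in each of the other groups. How many of all genes separated alike was not counted. The mean difference after MCAO was 2.43 in diabetic mice (SE 0.311, n = 8, adjusted p = 0.00493 with limma), 1.69 in old mice (SE 0.282, n = 8, adjusted p = 0.156) and 2.13 in male mice (SE 0.229, n = 7, adjusted p = 0.00184).

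Fosb encodes FosB, whose truncated form ΔFosB is known to persist in neurons, and the probe set does not tell the forms apart. Its lowest, median and highest difference was -0.04, 2.51 and 3.35 in diabetic, 0.10, 1.76 and 2.55 in old and 0.48, 2.05 and 2.87 in male MCAO mice. In sham mice it ran between -0.53 and 0.20 in the diabetic, between -0.64 and -0.01 in the old and between -0.02 and 0.42 in the male group. Fosb followed Fos in size, with no overlap between MCAO and sham mice in old and in male mice and with 1 diabetic mouse among the sham values. Such overlap was not counted over all genes. The mean was 2.14 in diabetic mice (SE 0.306, adjusted p = 0.00734), 1.53 in old mice (SE 0.252, adjusted p = 0.156) and 1.94 in male mice (SE 0.211, adjusted p = 0.00184).

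Fosl1 and Fosl2 encode the Fos-related antigens Fra-1 and Fra-2, which lack a strong transactivation domain. Fosl2 differed by 0.19, 1.45 and 1.98 (lowest, median and highest) in diabetic, by -0.42, 0.75 and 1.32 in old and by 0.15, 0.80 and 1.83 in male MCAO mice. Its mean was 1.27 in diabetic mice (SE 0.187, adjusted p = 0.00746) and passed the test there, while 0.63 in old mice (adjusted p = 0.445) and 0.94 in male mice (adjusted p = 0.127) did not. Fosl1 differed by -0.02, 0.68 and 1.07 in diabetic MCAO mice, against 0.48, 0.02, -0.44 and -0.69 in diabetic sham mice, so that 5 of 8 MCAO mice lay above every sham mouse. That count, too, was not made over all genes. The mean of Fosl1 of 0.62 in diabetic mice passed narrowly (SE 0.139, adjusted p = 0.0385), and it was called in 4 of the 12 fits that left out 1 mouse (adjusted p 0.0347 to 0.102). In old and male mice the mean of Fosl1 was 0.21 and 0.06 (adjusted p = 0.721 and 0.962).

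Jun encodes c-Jun, a substrate of the JNK kinases that can pair with itself. Its difference was 0.03, 1.19 and 1.97 in diabetic (lowest, median and highest), -0.51, 1.09 and 1.27 in old and 0.47, 0.69 and 1.06 in male MCAO mice. The sham values were -0.07, -0.14, 0.10 and -0.17 in diabetic, -0.16, -0.67, -0.18 and -0.18 in old and -0.17, 0.07 and -0.19 in male mice. Jun thus moved less than Fos in each group, and its values in male mice had the smallest SD of the 4 called there (0.207, n = 7). The mean was 1.11 in diabetic mice (SE 0.194, adjusted p = 0.0146), 0.81 in old mice (SE 0.173, adjusted p = 0.27) and 0.70 in male mice (SE 0.0873, adjusted p = 0.00344). With a trended and robust variance the adjusted p of Jun was 0.0537 in diabetic and 0.0634 in male mice.

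Junb encodes a Jun protein that is known to activate transcription more weakly than c-Jun and to restrain it in some settings. It differed by -0.12, 1.52 and 2.44 in diabetic (lowest, median and highest), by -0.14, 1.22 and 1.64 in old and by 0.53, 1.49 and 1.72 in male MCAO mice. In sham mice its range was -0.16 to 0.38 in the diabetic, -0.997 to 0.01 in the old and -0.09 to 0.15 in the male group. The mean was 1.42 in diabetic mice (SE 0.207, adjusted p = 0.00746), 0.92 in old mice (SE 0.198, adjusted p = 0.27) and 1.37 in male mice (SE 0.122, adjusted p = 0.000483). Jund, which encodes the constitutive JunD, differed by -0.62, 0.24 and 0.44 in diabetic, by -0.01, 0.16 and 0.59 in old and by -0.04, 0.14 and 0.33 in male MCAO mice. Its means of 0.13, 0.19 and 0.14 did not pass the test (adjusted p = 0.506, 0.618 and 0.789), and their 95% intervals ran from -0.10 to 0.36, from 0.02 to 0.35 and from -0.03 to 0.32.

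**Figure D1:**
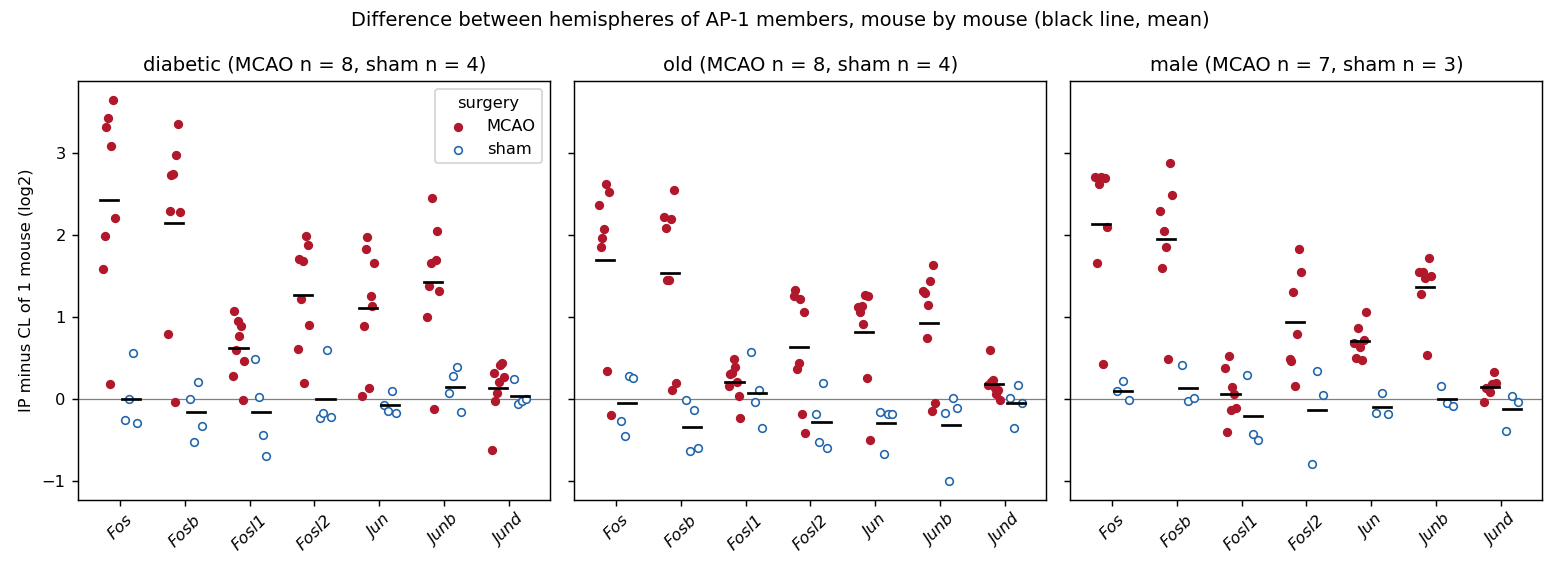
IP minus CL of each mouse (log2, y axis) for the 7 members (x axis) in diabetic, old and male mice, with filled red points for MCAO mice, open blue points for sham mice and a black line for the mean. Fos of most MCAO mice lies above 1.5, while 1 diabetic mouse (0.18), 2 old mice (0.33 and -0.20) and 1 male mouse (0.43) lie among or near the sham mice, and Jund stays near 0.

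In sham mice no member was called between hemispheres, and neither was any other gene (0% of all genes in each of the 3 groups by limma, with 612, 1060 and 1043 genes at an unadjusted p under 0.05 in diabetic, old and male mice). The largest sham means in size were -0.35 for Fosb and -0.32 for Junb in old mice, where CL was the higher side. When the IP minus CL difference of MCAO mice was set against that of sham mice, no gene was called (0% of all genes in each of the 3 groups by limma, with 1912, 1155 and 1157 genes at an unadjusted p under 0.05 in diabetic, old and male mice). All 7 members had a positive value in each group in that comparison, for Fos 2.43 in diabetic mice (adjusted p = 0.259), 1.74 in old mice (adjusted p = 0.823) and 2.03 in male mice (adjusted p = 0.278). A two-sided exact permutation test of the mice, run for each member and group as 21 unadjusted tests, gave p = 0.00808 for Fos in diabetic, 0.0162 in old and 0.0167 in male mice. Of the 7 members, 6 in diabetic, 5 in old and 5 in male mice were under 0.05 unadjusted in that test, and Jund in no group. Only the members were put to this test, so no share of all genes stands beside these counts. The smallest p that this two-sided test allowed with these numbers of mice was 0.00404 in diabetic and old and 0.0167 in male mice. In male mice Fos, Fosb, Jun and Junb were at that limit.

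The IP hemisphere of MCAO mice was then set against the IP hemisphere of sham mice. Here 4 or more members rose in each group, old mice included. Fos was called in each group, with 3.02 in diabetic mice (SE 0.297, adjusted p = 0.000716), 2.49 in old mice (SE 0.234, adjusted p = 0.000422) and 3.23 in male mice (SE 0.208, adjusted p = 1.33e-06). Fosb was at 2.93, 2.29 and 2.57, Jun at 1.39, 1.37 and 1.32 and Junb at 1.66, 1.61 and 2.05 in diabetic, old and male mice, and each of them was called in each group. Fosl2 was called in diabetic mice (1.53, adjusted p = 0.035), though in only 3 of the 12 fits that left out 1 mouse (adjusted p 0.0126 to 0.142). That made 5 of 7 members in diabetic, 4 in old and 4 in male mice, against 0.272%, 0.0666% and 0.174% of all genes called higher. The median over the members was 1.53, 1.37 and 1.43, beside -0.03, -0.01 and 0.02 over all genes. In male mice these calls rest on leaving out the 2 mice with poor arrays, since with all 8 MCAO and 4 sham mice 0 members passed.

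The levels of single mice are given next for Fos. Fos in the IP hemisphere had a lowest, median and highest level of 9.34, 10.66 and 11.22 in diabetic MCAO mice, against 6.90, 7.68, 7.72 and 7.63 in diabetic sham mice. In old mice it was 9.11, 9.68 and 10.43 after MCAO, against 7.20, 7.07, 7.39 and 7.40 after sham surgery. In male mice it was 8.08, 8.90 and 9.13 after MCAO, against 5.44, 5.91 and 5.36 after sham surgery. Every MCAO mouse thus lay above every sham mouse of its group, and the same held for Fosb, Fosl2, Jun and Junb in the IP hemisphere of the 3 groups. Fosl1 lay above every sham mouse in 7 of 8 diabetic, 2 of 8 old and 4 of 7 male MCAO mice, and Jund in 5, 2 and 5. Such counts of mice above all sham mice were made for the members only, here and for IP minus CL and CL. The share of all genes that separated alike was not counted.

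In the CL hemisphere no member was called between MCAO and sham mice, and neither was any other gene (0% of all genes in each of the 3 groups by limma, with 849, 961 and 903 genes at an unadjusted p under 0.05 in diabetic, old and male mice). Fos averaged 0.59 higher in CL after MCAO in diabetic mice (95% interval -0.45 to 1.63), 0.75 in old mice (-0.26 to 1.77) and 1.20 in male mice (0.16 to 2.24, adjusted p = 1). The CL level of Fos lay above that of every sham mouse in 3 of 8 diabetic, 6 of 8 old and 6 of 7 male MCAO mice. For Fosb this held in 3, 3 and 6, for Jun and for Junb in 3, 2 and 6, and for Fosl2 in 2, 2 and 6. The fitted CL difference of Jun was 0.52 in male mice (unadjusted p = 0.00743, adjusted p = 1).

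Among MCAO mice the SD of the Fos level was 0.601 in IP and 1.10 in CL in diabetic mice, 0.497 and 1.06 in old mice and 0.368 and 1.05 in male mice, so that CL had the wider spread, a difference that was not tested. In diabetic MCAO mice 3 of 8 had a Fos level of 9.16, 9.23 and 9.73 in CL (mice 1, 2 and 5), while the other 5 lay between 7.10 and 7.58, within the range of the sham mice (7.16 to 7.93 in CL) or just under it. In old MCAO mice 2 of 8 had 10.10 and 9.31 in CL (mice 6 and 8) and the other 6 lay between 7.14 and 7.82, beside 7.12 to 7.53 in sham mice. In male MCAO mice 1 of 7 had 8.47 in CL (mouse 6) and the others lay between 5.37 and 7.47, beside 5.34 to 5.69 in sham mice.

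The MCAO mice with the smallest IP minus CL difference of Fos had a high CL level, which is itself a part of that difference. Their IP level stayed above that of every sham mouse. Among the MCAO mice of its group, old mouse 8 had the lowest IP level and old mouse 6 the highest. Diabetic mouse 5 lay above only diabetic mouse 8 (9.34), and male mouse 6 lay at the median. Diabetic mouse 5 had a Fos level of 9.91 in IP and 9.73 in CL, old mouse 6 had 10.43 and 10.10, old mouse 8 had 9.11 and 9.31, and male mouse 6 had 8.90 and 8.47. The same mice had a high CL level of Junb, with 9.88 in IP and 10.003 in CL in diabetic mouse 5, 10.07 and 10.22 in old mouse 6, 9.51 and 9.55 in old mouse 8 and 8.46 and 7.94 in male mouse 6. Over 20 other immediate early genes the mean level was 8.86 in IP and 8.80 in CL in diabetic mouse 5, 9.23 and 9.02 in old mouse 6, 8.52 and 8.99 in old mouse 8 and 7.90 and 7.499 in male mouse 6. The CL mean of these 20 genes ran from 7.62 to 7.96 in diabetic, from 7.52 to 8.02 in old and from 6.13 to 6.19 in male sham mice. What sets these arrays apart was not tested.

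The result of the old group between hemispheres changed with old MCAO mice 6 and 8 and with the filter and threshold. These 2 mice had the lowest Fos differences of the group (0.33 and -0.20), so leaving out either raises the mean that is tested. Of the 12 fits that left out 1 mouse, Fos was called in 2, Fosb in 2 and Jun in 1. Without mouse 6 the test called 12 genes of 19505 and 2 of the 7 members, namely Fos at 1.88 (adjusted p = 0.035) and Fosb at 1.73 (adjusted p = 0.0226). Without mouse 8 it called 31 genes and 3 members, namely Fos at 1.96 (adjusted p = 0.00405), Fosb at 1.72 (adjusted p = 0.0147) and Jun at 1.00 (adjusted p = 0.00405). With all 8 mice and a filter on the mean level, Fos and Fosb were called (adjusted p = 0.0148 for both), among 6 genes of 9753. Under the filter and threshold of the study's methods (only the genes with the largest standard deviation, adjusted p under 0.25), 4 of the 5 members tested were called in old mice, namely Fos, Fosb, Jun and Junb, against 0.738% of the 4877 genes tested. Under that setting 9.68% of genes were called higher in diabetic and 1.35% in male mice. The standard deviation was taken over all arrays of a group, the IP arrays of MCAO mice included. A gene can thus pass the filter through the same rise that is tested, so these calls are no independent support.

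**Figure D2:**
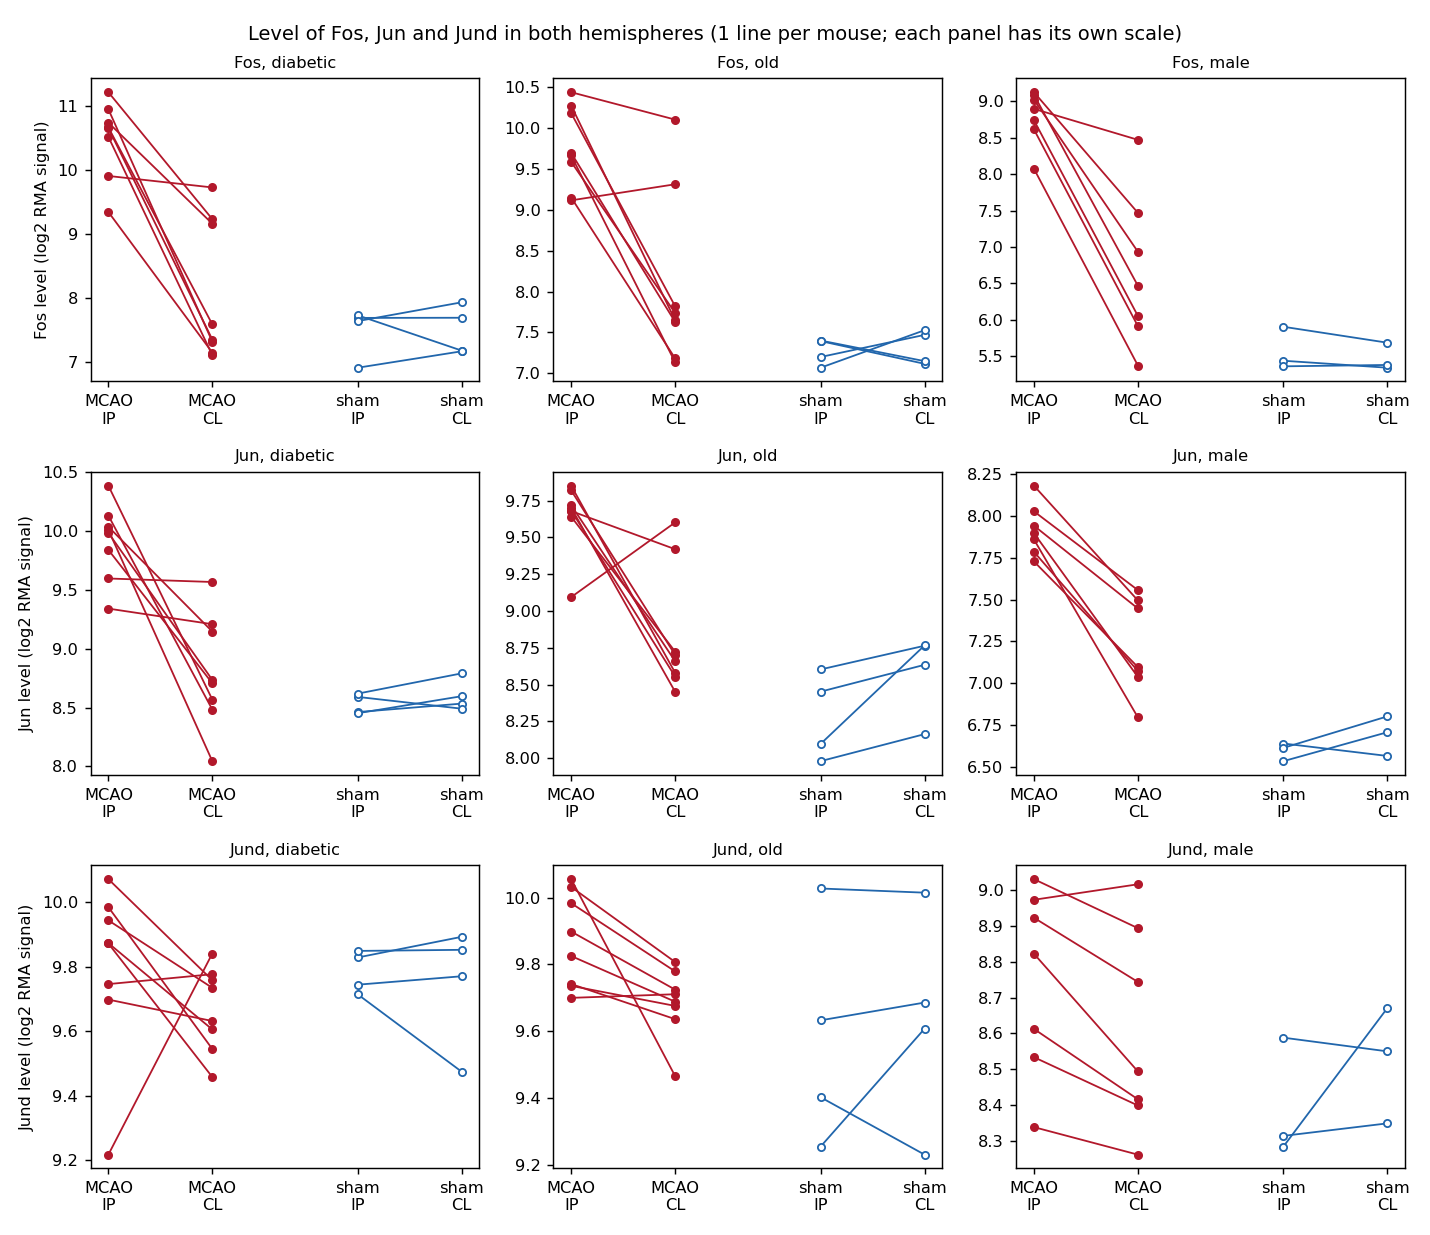
Level (log2 signal, y axis) of Fos, Jun and Jund in diabetic, old and male mice, with 1 line per mouse between its IP and its CL hemisphere, in red for MCAO mice and in blue for sham mice; each panel has its own scale. Flat red lines at a high level mark mice such as diabetic mouse 5 (Fos 9.91 in IP and 9.73 in CL) and old mouse 6 (10.43 and 10.10).

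**Figure D3:**
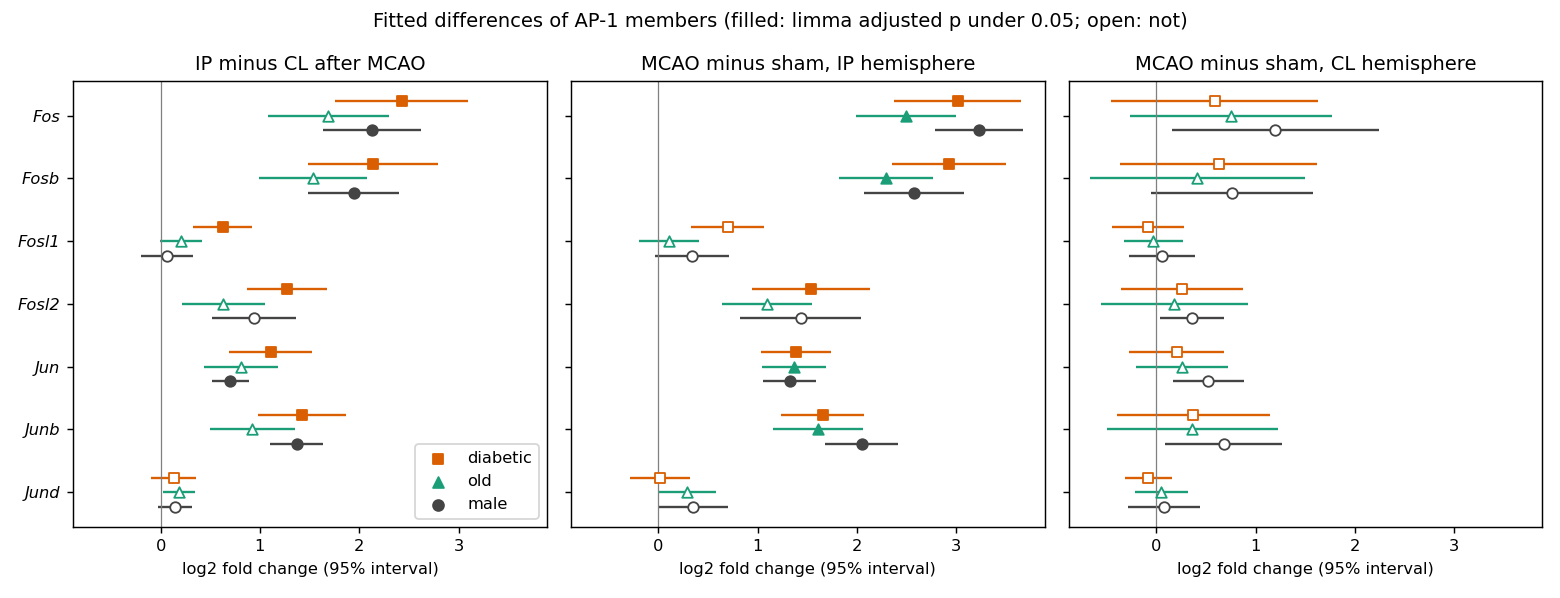
Fitted log2 fold changes with 95% intervals (x axis) for the 7 members (y axis) in diabetic, old and male mice, for IP minus CL after MCAO, MCAO minus sham in the IP hemisphere and MCAO minus sham in the CL hemisphere; filled symbols passed an adjusted p of 0.05 with limma. Old Fos is open at 1.69 in the first panel and filled at 2.49 in the second, and all symbols of the third panel are open.

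Between groups the size of the IP minus CL difference after MCAO was compared directly, and no member was called. For Fos, diabetic minus old was 0.74 (95% interval -0.13 to 1.60), diabetic minus male was 0.30 (-0.60 to 1.20, adjusted p = 0.797) and old minus male was -0.44 (-1.33 to 0.46, adjusted p = 1). Jun was at 0.30, 0.41 and 0.11, Junb at 0.50, 0.06 and -0.45 and Fosl2 at 0.64, 0.33 and -0.31 for diabetic minus old, diabetic minus male and old minus male. The lowest adjusted p was that of Fosl1, with diabetic minus male at 0.56 (0.19 to 0.93, adjusted p = 0.129). Over all genes 0.62% were called for diabetic minus male, 0% for old minus male (720 genes at an unadjusted p under 0.05) and 0.0461% for diabetic minus old. Male mice were run in an earlier set of experiments, diabetic mice are of another strain, and the filament differed by group, so that these cannot be told apart from diabetes or age.

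Beside the diabetic result stand other values of the same hemispheres. Neutrophil markers were higher in IP in diabetic MCAO mice by a mean of 0.86 (range 0.29 to 1.28 over 8 mice, 3 of 5 genes called), against -0.20 to 0.79 in diabetic sham mice. In old and male MCAO mice the neutrophil mean was 0.00 and 0.10, with 0 of 5 genes called. Markers of neurons averaged -0.19 in diabetic, 0.01 in old and 0.02 in male MCAO mice, with 1 of 5 called lower in diabetic mice. Those of red blood cells averaged 0.44 in diabetic MCAO mice, with 0 of 2 genes called. Endothelial markers averaged 0.25 (range 0.02 to 0.59, 1 of 5 genes called higher) and those of oligodendrocytes 0.23 (0 of 4 called) in diabetic MCAO mice. The part of these cells in the AP-1 values was not tested.

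In diabetic MCAO mice the difference of Fos was related to that of Junb (Pearson r = 0.952, permutation p = 0.000298, adjusted over 18 relations p = 0.00268; Spearman rho = 0.929, p = 0.00223, adjusted p = 0.0326; n = 8) and to that of Fosb (r = 0.947, rho = 0.905, with permutation p = 0.000298 and 0.00456, adjusted p = 0.00268 and 0.0326). Without the 2 mice farthest from the median of Fos (mice 1 and 5), r was 0.804 for Junb and 0.873 for Fosb (n = 6). Mouse 2, whose CL level was also high, stayed in. In old mice, mice 6 and 8 stood apart, so no test over all old mice is given here. Over the other 6 r was 0.694 for Junb, 0.67 for Fosb and 0.736 for Jun. In male mice r with Junb was 0.954 (permutation p = 0.00833, adjusted p = 0.0214) but rho was 0.536 (permutation p = 0.236, adjusted p = 0.471), and r was 0.342 without the 2 farthest mice, so that the relation rests on those. Fosl1 and Jund showed no relation with Fos that passed the adjustment in any group. The genes of a mouse share both arrays, which the values include.

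Among all genes, those whose IP minus CL difference varied most like that of Fos over MCAO mice were Npas4, Junb, Rgs2, Fosb and Btg2, with a mean Pearson r over the 3 groups of 0.95, 0.95, 0.91, 0.91 and 0.88. Npas4 is a transcription factor of active neurons, Rgs2 a brake on G protein signalling and Btg2 an antiproliferative early gene. Those most like Jun were Dusp1, Nr4a1, Epha2, Hspa1b and Nr4a3, with 0.90, 0.83, 0.80, 0.79 and 0.78. Dusp1 is a phosphatase that inactivates MAP kinases including JNK, Nr4a1 and Nr4a3 are orphan nuclear receptors, Epha2 is an ephrin receptor and Hspa1b an inducible heat shock protein. The r of Jun with Fos was 0.781 in diabetic, 0.966 in old and 0.484 in male mice. These correlations over 8, 8 and 7 mice of the 3 groups are a description of likeness, carry no test and include the old and male mice that stand apart. Without the 2 mice farthest from the median of Fos, r with Junb was 0.804, 0.694 and 0.342, with Fosb 0.873, 0.67 and -0.227 and with Jun 0.36, 0.736 and -0.927 in diabetic, old and male mice.

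Of 20 other immediate early genes, 13 rose in IP in diabetic, 0 in old and 11 in male mice, and none fell, with a median of 1.00, 0.68 and 0.99. Of all genes, 1.04%, 0% and 0.149% were called higher in that comparison. Npas4 had the largest mean difference, with 3.12 in diabetic (adjusted p = 0.00855), 2.93 in old (adjusted p = 0.156) and 2.70 in male mice (adjusted p = 0.017). Ccn1, a matrix-associated signalling protein, was at 1.99, 1.25 and 1.84 and Nr4a1 at 1.70, 1.13 and 1.39 in diabetic, old and male mice. Egr4, Egr2, Btg2, Nr4a3 and Zfp36, an RNA-binding protein that shortens the life of cytokine mRNAs, lay between 1.297 and 1.64 in diabetic, between 0.81 and 0.97 in old and between 1.05 and 1.503 in male mice. None of the 8 genes passed the test in old mice. Between MCAO and sham mice in the IP hemisphere, 11, 5 and 12 of the 20 were called higher in diabetic, old and male mice. That stood beside 0.272%, 0.0666% and 0.174% of all genes, and the median of the 20 was 1.29, 0.99 and 1.48.

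Of 16 measured genes for bZIP proteins that pair with Fos or Jun or their relatives, 2 rose in diabetic, 0 in old and 1 in male mice. Their median difference was 0.20, 0.12 and 0.06 in diabetic, old and male mice. The share of all genes called higher was 1.04%, 0% and 0.149%. Atf3, a stress-induced partner of Jun, was at 1.34 in diabetic (adjusted p = 0.0167), 1.10 in old (adjusted p = 0.465) and 1.60 in male mice (adjusted p = 0.00344), and it was higher in 7 of 8, 7 of 8 and 7 of 7 mice. Maff, a small Maf protein also counted among the early genes, was the other one that rose in diabetic mice (0.97, adjusted p = 0.0272) and was named after its value was seen. Of 19 measured kinases and factors upstream of the family, none rose in any group, the medians were -0.03, 0.00 and 0.02, and Mrtfa, a coactivator of serum response factor named after its value was seen, fell in diabetic mice (-0.37, adjusted p = 0.0303). Between MCAO and sham mice in the IP hemisphere, 1, 0 and 3 of the 16 partners were called higher in diabetic, old and male mice. All genes gave a share of 0.272%, 0.0666% and 0.174% called higher in that comparison. None of the 19 upstream genes was called there.

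Of 21 measured genes known as AP-1 targets in one tissue or another, 5 rose in diabetic, 0 in old and 1 in male mice, and none fell, with medians of 0.26, 0.06 and 0.15. Among all genes 1.04%, 0% and 0.149% were called higher. Ptgs2, the inducible cyclooxygenase, was at 1.49 in diabetic (adjusted p = 0.00746), 1.31 in old (adjusted p = 0.156) and 1.38 in male mice (adjusted p = 0.00344). It was higher in IP in 7 of 8, 8 of 8 and 7 of 7 MCAO mice. The other 4 that rose in diabetic mice, named after their values were seen, were Nts, the neuropeptide neurotensin (1.11), the chemokine gene Ccl2 (0.94), the collagenase gene Mmp13 (0.70) and Vegfa, the vascular growth factor (0.47). Between MCAO and sham mice in the IP hemisphere, 4, 1 and 1 of the 21 were called higher in diabetic, old and male mice. The share of all genes called higher there was 0.272%, 0.0666% and 0.174%. Whether AP-1 acted on any of these targets was not tested.

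**Figure D4:**
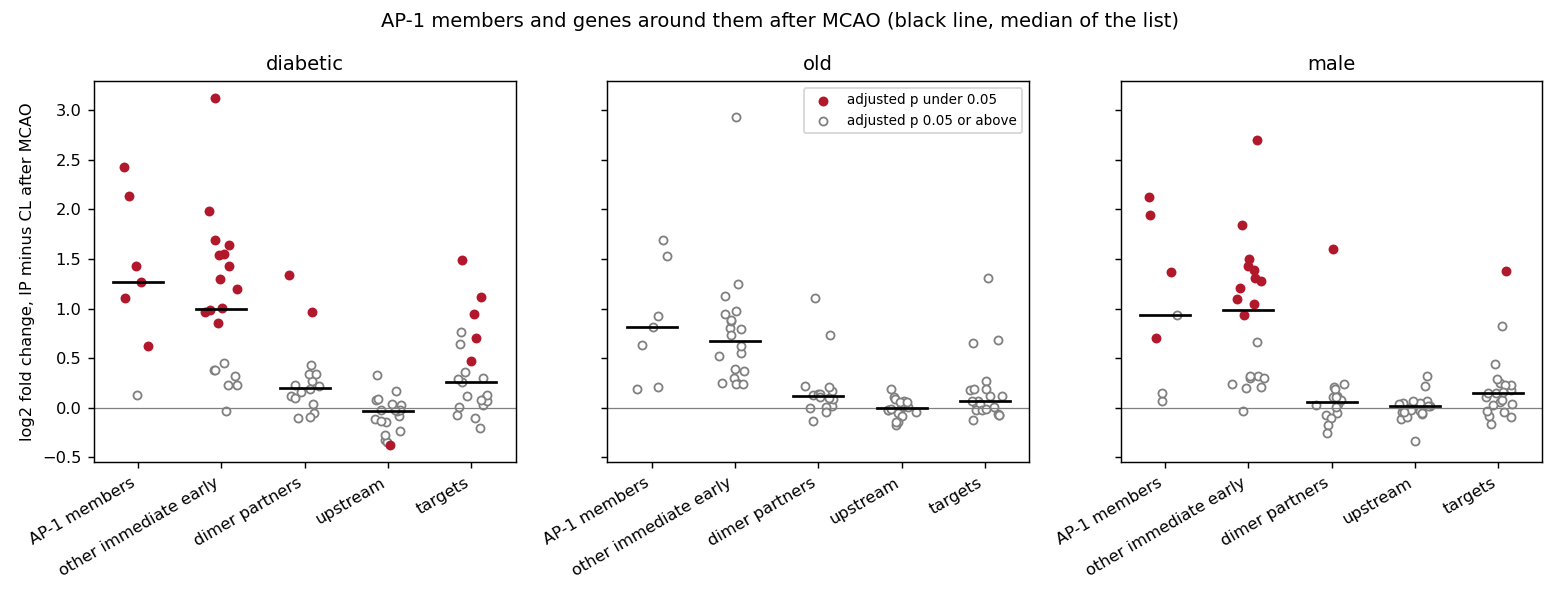
Log2 fold change of IP minus CL after MCAO (y axis) for the 7 AP-1 members and 4 gene lists (x axis: 20 other immediate early genes, 16 dimer partners, 19 upstream genes, 21 targets) in diabetic, old and male mice, with filled red points for an adjusted p under 0.05 and a black line for the median. The medians of the members (1.27, 0.81 and 0.94) and of the other early genes (1.00, 0.68 and 0.99) lie above those of the remaining lists, which are at most 0.26.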

How the data were processed

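Hemispheres were hybridized to Clariom S Mouse arrays, 96 in all. The deposited values are log2 signals from RMA, which corrects background, takes logs and sets equal quantiles, run by the authors for each group separately. Affymetrix Expression Console is named in the submitters' processing notes, with its version not given in the sources used here. Precision is limited by the number of arrays.

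A single gene symbol was found for 19572 of 29129 probe sets, several for 0 and none for 9557. This gave 19505 genes, each read from its probe set of highest mean. For 8800 probe sets, Fos and Fosl1 among them, diabetic and old values stood 3 rows away from their names and were shifted back. Over those rows the correlation with male means was 0.9746 (diabetic) and 0.9765 (old) after the shift, and 0.1688 and 0.1702 before it. The female values were shifted in the same way, without this check. Male MCAO mouse 3 and male sham mouse 1 were left out for poor arrays, and the 24 female arrays were not used.

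IP minus CL of each mouse was fitted in each group with limma 3.58.1 in R 4.3.3 (empirical Bayes, MCAO and sham mice in 1 model), over all named genes, with Benjamini-Hochberg adjusted p under 0.05. The study's filter on the standard deviation and threshold of 0.25 were an alternative, since the filter would leave members out. Hemispheres of MCAO and sham mice were compared on IP or CL arrays alone, and groups in 1 model of the differences. Both arrays of a mouse share the animal, which paired them. Their deviations from the group mean correlated with a median r of 0.0823 to 0.176, against -0.113 to -0.0182 for arrays of different mice. Subtracting the mean by itself pushes the values for different mice below 0, so these are no independent reference. The replicates are separate mice. The scripts were tested on simulated data.

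The members and gene lists were chosen with earlier results of these data known. Of the lists, genes called in at least 2 groups were named, at most 8 a list, and the rest were counted; the 5 genes most like Fos and Jun were named. Alternatives were other thresholds, filters, variances and normalizations, the poor arrays, no block, and leaving out each mouse. Exact tests used scipy 1.17.1, figures matplotlib 3.10.9, and tables pandas 2.3.3 (Python 3.11.15). Start regions came from RefSeq.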

Additional observations from a re-analysis of the deposited data

Results flagged for a closer look

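Among 105 sets of 4 to 8 values (7 members, 3 measures, 5 sets of mice), 12 held a mouse far from the others by Dixon's criterion, which chance meets in about 1 set of 20. Male MCAO mouse 6 had the highest CL level of Fosb (8.33, others 5.94 to 6.87) and the lowest IP minus CL of Junb (0.53, others 1.28 to 1.72). Diabetic MCAO mouse 1 had the lowest Jund in IP (9.22, others 9.70 to 10.07) and the lowest IP minus CL of Jund (-0.62, others -0.03 to 0.44). Old MCAO mouse 8 had the lowest IP level of Jun (9.09, others 9.64 to 9.85), and old MCAO mouse 2 the highest IP minus CL of Jund (0.59, others -0.01 to 0.22).

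Among diabetic sham mice, mouse 1 stood apart for Fos in IP (6.90, others 7.63 to 7.72), mouse 4 for Fosb in IP (7.60, others 7.25 to 7.29) and mouse 3 for IP minus CL of Fosl2 (0.60, others -0.23 to -0.17). Among old sham mice, mouse 1 stood apart for Fosb in IP (8.00, others 7.38 to 7.44), mouse 3 for Fosb in CL (7.58, others 7.97 to 8.02) and mouse 2 for IP minus CL of Jun (-0.67, others -0.18 to -0.16). No difference between groups in the IP minus CL value of a member passed its test.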

How the results depend on the processing

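Counts of members called are given per setting, out of those tested. At an adjusted p under 0.25 over all genes, 2 were called between hemispheres in old MCAO mice, 1 for MCAO minus sham in male mice and 1 for diabetic minus male, among 8, 3 and 1823 of 19505 genes. The filter on the standard deviation at 0.25 gave 4 in old MCAO mice, 2, 3 and 3 for MCAO minus sham in old, diabetic and male mice, and 1 for MCAO against sham in the male CL hemisphere, among 49, 6, 28, 40 and 7 of 4877 genes. That filter was set on the tested arrays themselves, so a rise can bring a gene through it. A filter on the mean gave 2 in old MCAO mice and 1 for MCAO minus sham in male mice, among 6 and 1 of 9753 genes. A trended and robust variance left 4 members called between hemispheres in diabetic MCAO mice (Fosl1 at 0.075 and Jun at 0.0537 were lost) and 3 in male MCAO mice (Jun at 0.0634 was lost). MCAO arrays alone left 4 in diabetic mice (Fosl1 at 0.065 and Jun at 0.0637 were lost) and 4 in male mice. With all 8 male MCAO and 4 male sham mice, 0 were called in the male IP hemisphere.

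Over all genes, 446, 0 and 31 were called between hemispheres in diabetic, old and male MCAO mice. The counts were 4321, 8 and 92 at 0.25, 673, 49 and 90 after filtering by standard deviation, 1404, 6 and 64 after filtering by mean, 26, 0 and 16 with a trended and robust variance, 56, 0 and 22 on MCAO arrays alone and 1206, 0 and 32 with each array set to its median.

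Without the replicate block that pairs the arrays of a mouse, 6 members were called between hemispheres in diabetic, 0 in old and 5 in male MCAO mice (Fosl2 added at an adjusted p of 0.04). Leaving out single mice gave 5 to 6 in diabetic, 0 to 3 in old and 4 in every such fit of male MCAO mice, and 0 to 3 for MCAO minus sham in male mice, where 3 members were called without MCAO mouse 6, among 9 genes.

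Values near 0 changed sign without passing a test. With all male mice Jund was -0.0037 between hemispheres, -0.032 for MCAO minus sham and 0.14 for diabetic minus male. Junb was -0.0412 for diabetic minus male with each array set to its median, and Jund 0.0235 after quantile normalization. Over single mice left out, diabetic minus male ran from -0.0492 to 0.51 for Fosb, -0.0896 to 0.28 for Junb and -0.0564 to 0.0955 for Jund. Jund ran from -0.0167 to 0.0717 for old minus male and from -0.0973 to 0.0545 for diabetic minus old, and Fosl1 from -0.0108 to 0.14 in male MCAO mice and from -0.0088 to 0.30 for MCAO minus sham in old mice. The causes were not tested. Since each member had 1 probe set, averaging probe sets could not be tried, and an adjustment over the exact tests alone was not used.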

Other observations

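The female arrays, whose hemisphere labels are in doubt, gave values of Fos that are reported as labelled and compared with nothing. The values were read after the same shift of 3 rows as in diabetic and old mice, which was not checked for females. In MCAO mice 2 to 8 the level labelled IP was 8.45, 8.64, 8.75, 7.32, 9.41, 9.60 and 9.53 and the level labelled CL was 9.74, 11.26, 10.86, 10.49, 9.31, 10.82 and 7.09. In sham mice 2 to 4 the level labelled IP was 7.40, 7.46 and 7.20 and the level labelled CL was 10.55, 10.99 and 6.76. The columns of MCAO mouse 1 held the same value of 9.84 for both sides, and those of sham mouse 1 held 6.72 and 1.52. The column labelled CL of sham mouse 1 held 1.52 for every member, so that value is no level of Fos. Both columns of MCAO mouse 1 were identical for every member.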
